A study of Rattus norvegicus with 5 samples.

Results

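The comparison sets 1 γ-irradiated primary tumour against 1 non-irradiated primary tumour, 2 of the 5 samples of the series. Both grew from C6-L cells, a rat glioma line, as xenografts in BALB/c nu/nu nude mice with a host age of 6 weeks per the labels. The irradiated tumour was taken 6 weeks after γ-irradiation. The non-irradiated tumour was taken 6 weeks after the xenograft, so time since implantation may also differ between them and cannot be told apart from irradiation. The other 3 samples are metastatic lung nodules taken 6 weeks after γ-irradiation. They are used here for the size of differences between arrays of 1 group. The series asked how gene expression differs between irradiated and non-irradiated primaries. With 1 array for each primary there is no replicate check of any difference between them, and no p-value is given. The labels give no dose, and do not say whether a tumour came from 1 animal or from several. Nude mice lack a thymus, so mature T cells are scarce in the host while its macrophages and NK cells are present.

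Ionising radiation breaks DNA, which activates the transcription factor p53, and p53 in turn switches on genes that halt the cell cycle, repair DNA or trigger cell death. DNA that leaks from damaged nuclei can also be sensed in the cytosol and start a type I interferon response, in which transcription factors bind interferon-stimulated response elements (ISRE) in promoters. Irradiated tissue further releases cytokines and chemokines that recruit myeloid cells, and its blood vessels and oxygen supply change over weeks.

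RNA was measured on single-colour Agilent rat arrays. Values are log2 levels relative to each array's 75th percentile, and a difference is the irradiated minus the non-irradiated level. The primaries had 70.0 and 69.8% of their gene spots well above background and 0 saturated spots. The nodules had 72.5 to 73.5%. A feature, which is the brightest probe of a named gene or any probe without a gene name, was kept when well above background on at least 1 of the primaries, which gave 18448 features, 10875 of them named. Both primaries sat in 1 row of the slide and the nodules in the other. The probes are rat sequences, so mouse host RNA was read through probes of another species. In bulk tissue, fewer cells of a type and less RNA per cell cannot be told apart.

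The labelled glioma origin was set against 29 glial markers. Vimentin (Vim), an intermediate filament of C6 cells, stood at 5.45 in the irradiated and 5.04 in the non-irradiated primary, and nestin (Nes), a filament of neural precursors, at 3.02 and 3.60. The astrocyte filament Gfap was not well above background on either primary. The stem cell factor Sox2 was lower in the irradiated tumour, at 1.52 against 3.08, a difference that did not exceed the range of the nodules. Of 23 glial markers measured, 3 were at least 2-fold higher, 6 at least 2-fold lower and 14 less than 2-fold apart, with a median difference of -0.01. The shares higher and lower were 13.0 and 26.1%, beside 9.31 and 7.14% of all features. On the 18 measured on both primaries, 2 were higher, 4 lower and the median was -0.10. Over all 18448 features the median difference was 0.018.

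The primaries were further apart than the nodules were from each other. A difference of at least 2-fold was the call used, and 1718 features (9.31%) were higher and 1317 (7.14%) lower in the irradiated primary, 16.5% together. The same count gave 6.99% of features for nodules 1 and 2, 9.37% for nodules 1 and 3, and 3.6% for nodules 2 and 3. At least 4-fold apart were 4.27% of features between the primaries and 1.14 to 3.26% between nodules, and at least 8-fold 1.65% and 0.555 to 1.34%. The median size of a difference was 0.38 between the primaries and 0.16 to 0.24 between nodules. Among the 17125 features well above background on both primaries, 13.0% were at least 2-fold apart. With that filter on both arrays of a pair, the median of the nodule pairs was 4.60%. Among the brighter 50% of features, 9.43% were at least 2-fold apart between the primaries, and no nodule share was computed for these. Of the 3035 features called, 2670 (88.0%) differed by more than the whole range of the 3 nodules for that feature. The share of calls was 2.35 times the median of the nodule pairs. The nodules are lung metastases and the spread between primaries was not measured.

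**Figure D1:**
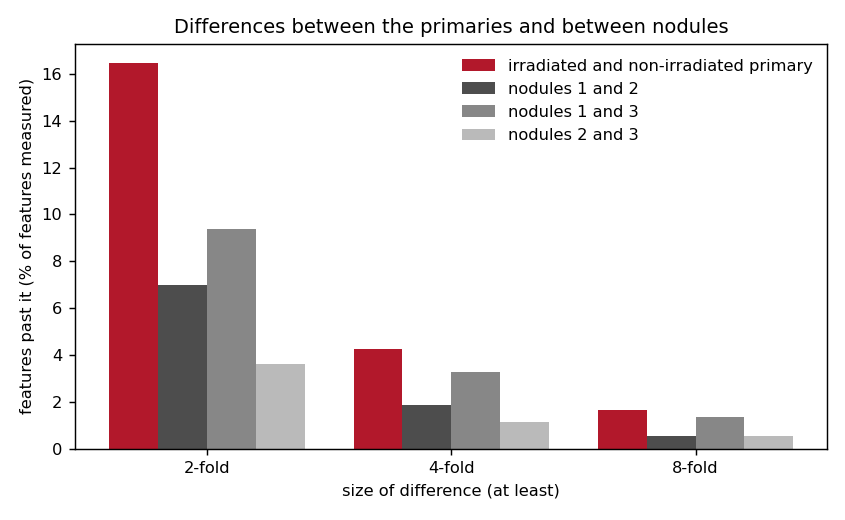
Share of measured features (y axis, percent) that differed at least 2-fold, 4-fold or 8-fold (x axis) between the primaries (red) and between each pair of nodules (greys), 1 array per sample. The red bars stand highest at each size, at 16.5, 4.27 and 1.65%, with nodules 1 and 3 next.

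Genes that p53 activates were higher in the irradiated tumour. Of 34 listed targets 27 were on the array and 25 were measured, 24 of these on both primaries. At least 2-fold higher were 12 of the 25 (48.0%, beside 9.31% of all features), 0 were lower, 13 were less than 2-fold apart and the median difference was 0.90. Each of the 12 differed by more than the range of the nodules, as did 1509 of all 1718 features called higher. With normexp background correction, which adds a constant to every signal and so compresses dim genes, the median was 0.47.

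Cdkn1a encodes p21, the inhibitor that stops the cell cycle after DNA damage. It stood at 4.65 in the irradiated and 3.22 in the non-irradiated primary, and at 4.56, 4.43 and 4.38 in nodules 1, 2 and 3. The difference of 1.43 is that of its brighter probe, while its other probe gave 0.12 and the mean of both stayed under 2-fold. Mdm2, the ubiquitin ligase that degrades p53, stood at 3.14 and 1.27 in the irradiated and non-irradiated primary and at 2.72, 2.69 and 2.97 in the nodules, a difference of 1.87. For both genes the non-irradiated tumour was the low sample and the other 4 arrays lay close together.

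Cyclin G1 (Ccng1) stood at 1.56 in the irradiated primary, -0.48 in the non-irradiated primary and 0.28, 0.36 and 0.55 in the nodules, a 4.11-fold difference. The secreted stress cytokine Gdf15 stood at -0.86 and -3.26 in the irradiated and non-irradiated primary and at -1.83, -2.49 and -2.29 in the nodules, a 5.28-fold difference. For these genes the irradiated primary was the highest array, the non-irradiated primary the lowest, and the nodules lay between. The death receptor Fas was higher by 1.52, from levels of -3.09 and -4.61, while the nodules were at -2.41 to -2.91, above both primaries. The RNA-binding protein Zmat3 was higher by 2.02 in its brighter probe and by 0.67 in its other probe, and the pro-apoptotic Bax by 1.07. Rrm2b, a ribonucleotide reductase subunit that supplies nucleotides for repair, was well above background in the irradiated primary only, and at least 3.07-fold higher there. Fas and Rrm2b were under 2-fold with normexp, and Bax when arrays were scaled to their medians.

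Genes of DNA repair and the damage checkpoint, in contrast, were close between the tumours. Of 29 measured, 3 were at least 2-fold higher, 0 lower and 26 less than 2-fold apart, with a median of 0.28. The share of 10.3% stands beside 9.31% for all features. Bard1 and Brca1, partners in homologous recombination, were higher by 1.80 and 1.03, the latter a dim gene that fell short of 2-fold in 3 other settings.

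Interferon-stimulated genes were higher in the irradiated tumour as well, but unevenly. Of 49 listed genes 42 were on the array and 40 were measured, 37 of them on both primaries. At least 2-fold higher were 17 of the 40 (42.5%, beside 9.31% of all features), 0 were lower, 23 were less than 2-fold apart and the median was 0.83. Each of the 17 was beyond the range of the nodules, as were 1509 of all 1718 features called higher. On the 37 genes measured on both primaries, 15 were higher and the median was 0.69. The differences ran from -0.62 to 3.56.

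Promoters of 4 of the most different genes are shown because each holds a match to the ISRE, the site through which interferon acts. They are the 250 bases before the RefSeq start of each gene on the rat build GRCr8, 5′ to 3′ on the strand of the gene, with the matches in capitals. A match is GAAA, any 2 bases and GAAA, or TTTC, any 2 bases and TTTC for the other strand.
Irf7, chr1:205800024-205800273 (minus strand): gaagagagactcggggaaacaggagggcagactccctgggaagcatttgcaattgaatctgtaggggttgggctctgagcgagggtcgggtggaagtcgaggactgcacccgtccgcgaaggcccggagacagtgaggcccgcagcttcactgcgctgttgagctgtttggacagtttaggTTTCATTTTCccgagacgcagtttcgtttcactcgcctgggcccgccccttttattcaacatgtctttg
Rsad2, chr6:48788121-48788370 (minus strand): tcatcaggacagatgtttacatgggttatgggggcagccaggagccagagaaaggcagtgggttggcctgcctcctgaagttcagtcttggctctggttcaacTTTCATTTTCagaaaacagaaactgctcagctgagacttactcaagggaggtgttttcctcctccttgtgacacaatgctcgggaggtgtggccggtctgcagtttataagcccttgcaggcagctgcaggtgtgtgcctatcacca
Oas1a, chr12:41330216-41330465 (plus strand): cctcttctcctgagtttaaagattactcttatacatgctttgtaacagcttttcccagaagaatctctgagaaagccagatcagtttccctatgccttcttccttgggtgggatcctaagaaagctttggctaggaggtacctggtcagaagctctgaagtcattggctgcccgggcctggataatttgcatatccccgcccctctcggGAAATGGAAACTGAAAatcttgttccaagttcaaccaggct
Ifit3, chr1:241527076-241527325 (plus strand): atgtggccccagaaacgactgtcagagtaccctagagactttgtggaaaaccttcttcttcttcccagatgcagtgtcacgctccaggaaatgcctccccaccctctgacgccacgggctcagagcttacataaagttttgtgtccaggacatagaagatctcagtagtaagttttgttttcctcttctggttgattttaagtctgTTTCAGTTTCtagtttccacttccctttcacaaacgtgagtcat

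The last base of the match lies 59 bases before the start in Irf7, 137 in Rsad2, 25 in Oas1a and 34 in Ifit3, and Oas1a holds a pair of overlapping matches. Of 36 interferon-stimulated genes with a promoter in the table, 22 (61.1%) hold a match, beside 3.29% of all 27457 promoters. Among those called higher it was 8 of 12, and among the other measured members 11 of 19. A match in this window was therefore found in members on both sides of the 2-fold line, and it is a description of letters, not of binding.

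Irf7, the transcription factor that amplifies interferon production, stood at 2.63 in the irradiated and -0.93 in the non-irradiated primary and at 1.95, 1.99 and 1.59 in nodules 1, 2 and 3. It was 11.8-fold higher, and the non-irradiated tumour was the low sample. Isg15, a ubiquitin-like modifier, stood at 2.04 and -1.24 in the primaries and at -2.15, -2.48 and -2.51 in the nodules. It was 9.72-fold higher, and here the irradiated tumour was the high sample. The antiviral enzyme Rsad2 resembled Isg15 in that order, with -2.22 in the irradiated primary, -5.44 in the non-irradiated and -6.67, -7.33 and -8.10 in the nodules. The RNA sensor Oas1a resembled Irf7, with -2.43, -5.33 and nodules at -2.96, -2.93 and -3.32. Genes of this list therefore differed in which of the other arrays they matched.

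Oasl and Ifit3 were not well above background in the non-irradiated primary, where the irradiated tumour was at least 6.71-fold and at least 4.47-fold higher. With normexp both differences were under 2-fold. Class I antigen presentation, which interferon also raises, was close between the tumours. Of 21 genes measured 2 were higher (9.52%, beside 9.31% of all features), 1 was lower and 18 were less than 2-fold apart, with a median of 0.32. The 2 were the class I-like gene Mill1 and the class Ib gene RT1-M3-1. Mill1 stood at -0.17 in the irradiated and -5.45 in the non-irradiated primary and at -6.57, -6.57 and -6.48 in the nodules, so that the irradiated tumour alone was high. RT1-T24-4 was lower by a difference of -1.04. Of 9 class II genes measured, 4 were at least 2-fold lower (44.4%, beside 7.14% of all features), 1 was higher and 4 were less than 2-fold apart. The invariant chain Cd74 stood at -1.82 in the irradiated and -0.15 in the non-irradiated primary, with nodules at -1.01, -1.39 and -2.70, whose range the difference of -1.67 did not exceed. RT1-Bb was lower by a difference of -1.54, RT1-Db1 by -1.36 and RT1-DMb by -1.30. The costimulator Cd80, the 1 higher member, was at least 2.76-fold higher and under 2-fold with normexp.

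**Figure D2:**
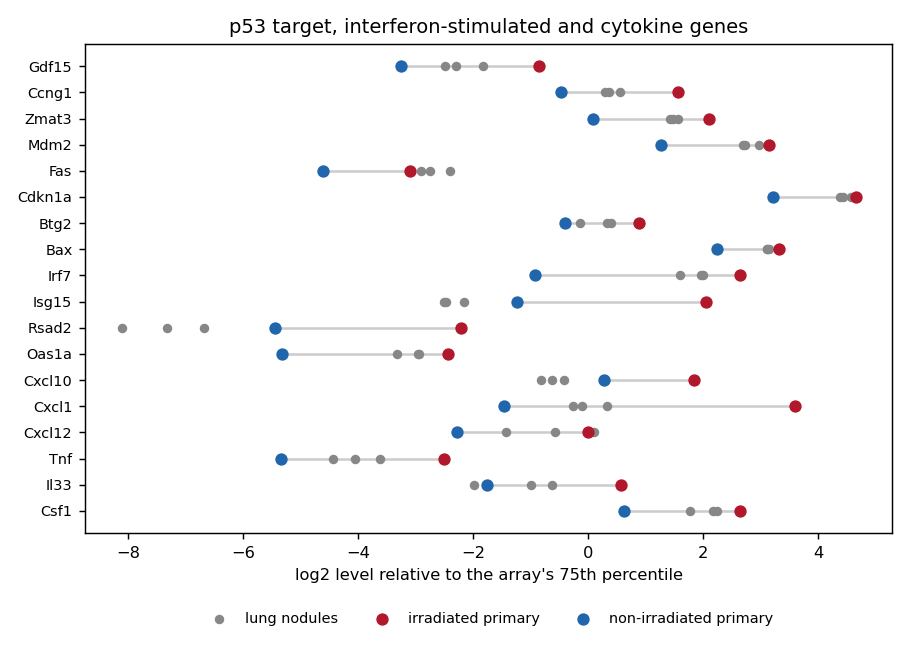
Log2 level relative to the array's 75th percentile (x axis) of 18 p53 target, interferon-stimulated and cytokine genes (y axis), 1 point per array: irradiated primary red, non-irradiated primary blue, 3 nodules grey. In Mdm2, Cdkn1a and Irf7 the blue point stands apart on the low side, and in Isg15, Cxcl1 and Cxcl10 the red point stands apart on the high side.

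Several chemokines, which attract neutrophils, monocytes and lymphocytes, were higher in the irradiated tumour. Of 24 listed, 16 were measured and 12 of these on both primaries. The 9 that were at least 2-fold higher (56.3%, beside 9.31% of all features) included 4 that passed the signal filter only through the irradiated array. On the 12 measured on both primaries, 5 were higher, 1 lower and the median was 0.034, where the median over all 16 was 1.34. The list as a whole therefore has no settled shift, and its single genes are given instead. Cxcl1, a neutrophil attractant, stood at 3.59 in the irradiated and -1.47 in the non-irradiated primary, with nodules at -0.27, 0.32 and -0.11, a 33.4-fold difference. Cxcl10, which interferon induces and which attracts T and NK cells, stood at 1.84 and 0.27, with nodules at -0.83, -0.62 and -0.43. In both genes the irradiated tumour was the highest of the 5 arrays.

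Cxcl12, a stromal chemokine, stood at -0.01 in the irradiated and -2.28 in the non-irradiated primary, with nodules from -1.43 to 0.10. Ccl3 was at least 13.4-fold, Cxcl11 at least 9.95-fold, Ccl4 at least 4.69-fold and Cxcl2 at least 3.87-fold higher, all dim in the non-irradiated primary. Ccl4 and Cxcl2 were under 2-fold with normexp. Among 18 cytokines measured, 6 were higher (33.3%, beside 9.31% of all features), 1 lower and 11 less than 2-fold apart. Tnf was higher by 2.83, the alarmin Il33 by 2.32, the macrophage growth factor Csf1 by 2.02 and the interleukin 1 antagonist Il1rn by 1.60. Osm, a cytokine of the interleukin 6 family, was lower by a difference of -1.73. Tgfb1 was at -0.67 and -0.52, less apart than the nodules.

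Several macrophage markers moved with these groups. Of 24 measured (27 listed), 9 were at least 2-fold higher (37.5%, beside 9.31% of all features) and 2 lower (8.33%, beside 7.14%). The other 13 were less than 2-fold apart, and the median was 0.71. On the 23 measured on both primaries, 8 were higher, 2 lower and the median was 0.65. The summed level of the 24 was 7.40 in the irradiated primary, 6.63 in the non-irradiated and 7.40 to 7.69 in the nodules. The non-irradiated tumour thus held the least. The part of macrophage RNA in the interferon and chemokine differences was not tested. The Fc receptor Fcgr1a stood at 1.69 and -0.58 in the irradiated and non-irradiated primary and at 1.29, 1.09 and 0.96 in the nodules. Trem2, a lipid receptor of macrophages, stood at 2.28 and 0.65, with nodules at 2.61, 2.17 and 1.86. The complement subunit C1qb stood at 4.88 and 3.47, with nodules at 4.72, 4.73 and 4.56. In these 3 genes the non-irradiated tumour was again the low sample.

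Arg1, an arginase of wound-type macrophages, was higher by 2.30 and reached -1.95 in the irradiated primary, with -4.25 in the non-irradiated and -8.01, -6.10 and -7.16 in the nodules. Cx3cr1, the fractalkine receptor of microglia and resident macrophages, ran against the list. It stood at -3.21 in the irradiated and -0.27 in the non-irradiated primary, with nodules at -1.18, -1.23 and -1.34, a 7.66-fold lower level. The probes of Aif1 were in conflict, at 2.07 and -1.92, so its direction is uncertain, and it counts among the 9. Of the other blood cell lists, 3 of 9 T and NK cell genes measured were higher (33.3%, beside 9.31% of all features) and 12 of the 21 on the array were dim on both primaries. Of the 6 measured on both primaries 1 was higher, since Gzmb and Cd2 were kept through the irradiated array alone. Cd7 was higher by 1.26, and Gzmb, a granzyme of killer cells, was at least 5.79-fold and Cd2 at least 2.80-fold higher, with Cd7 and Cd2 under 2-fold under normexp. Of 7 neutrophil markers measured, 1 was higher and 1 lower (14.3% each, beside 9.31 and 7.14% of all features). The higher one was kept through the irradiated array alone. Of 6 B cell markers on the array 1 was measured, at a difference of -0.03. In mast cell and platelet genes 4 of 7 were higher (57.1%, beside 9.31% of all features), of which 2 passed the signal filter only through the irradiated array. On the 5 measured on both primaries, 2 were higher and the median was -0.0057. The mast cell protease Cma1 was dim in the non-irradiated primary and at least 30.1-fold higher in the irradiated, and the platelet chemokine Pf4 was higher by 2.06.

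**Figure D3:**
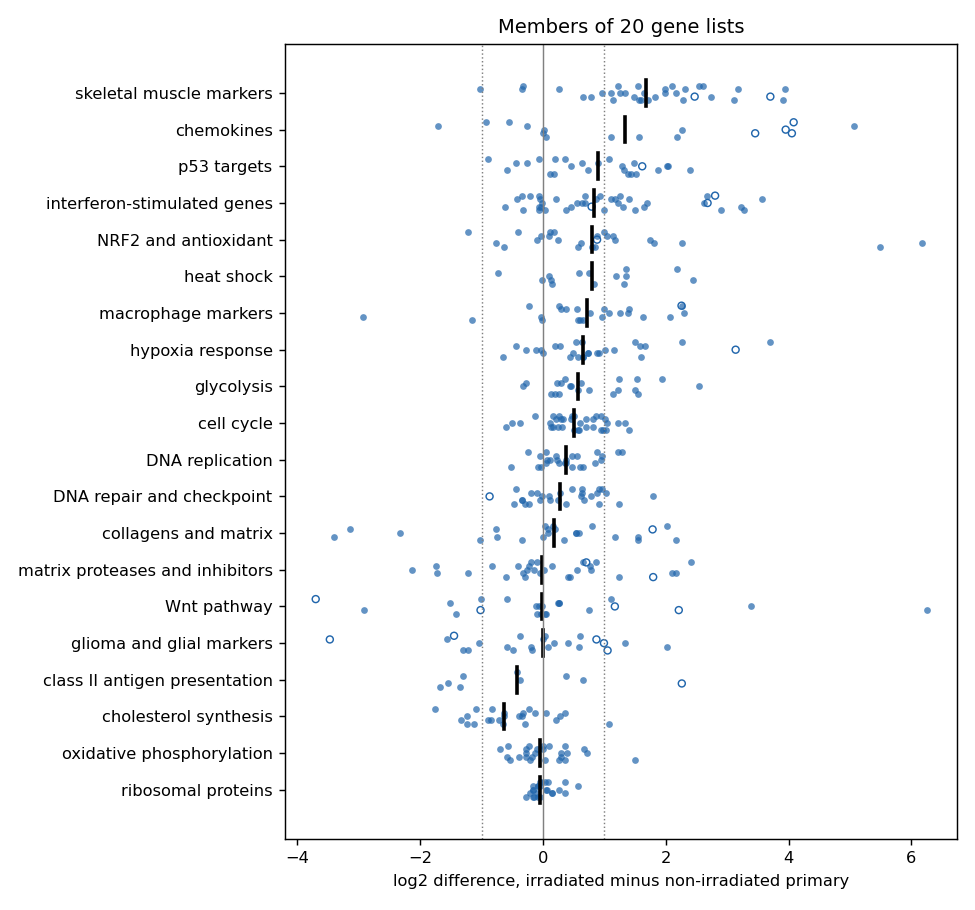
Log2 difference, irradiated minus non-irradiated primary (x axis), of each measured member (points) of 20 gene lists (y axis), with the list median as a black bar. Open points were well above background on 1 primary only, and dotted lines mark 2-fold. Skeletal muscle markers lie furthest right, ribosomal proteins around 0 and cholesterol synthesis genes mostly left of 0.

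Skeletal muscle genes gave the highest share of calls among the lists with at least 10 measured members. Of 41 markers 36 were on the array and 34 were measured, and 27 of these were at least 2-fold higher (79.4%, beside 9.31% of all features), 1 was lower and 6 were less than 2-fold apart. Their summed level was 7.81 in the irradiated primary, 5.95 in the non-irradiated and 5.28 to 5.31 in the nodules. The median difference was 1.67, and 22 of the 28 called differed by more than the nodules did, beside 2670 of all 3035 features called. On the 32 measured on both primaries, 25 were higher, 1 lower and the median was 1.62. The fast myosin heavy chain Myh4 stood at 2.45 in the irradiated and -1.49 in the non-irradiated primary and at -6.29, -7.22 and -6.98 in the nodules. Creatine kinase Ckm stood at 4.16 and 1.42, with nodules at -2.86, -3.99 and -1.27. Both primaries held more of these transcripts than the nodules, and the irradiated primary the most.

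Parvalbumin (Pvalb), a calcium buffer of fast fibres, stood at 0.11 and -3.80, with nodules from -5.75 to -5.27. Sarcolipin (Sln), which slows the calcium pump, and the light chain Myl1 were higher by 3.17 and 3.11, both less than the range of the nodules, in which nodule 3 stood apart at -1.05 and -3.68. Myl2, a slow-fibre light chain, was at least 10.7-fold higher. The heart myosins Myh6 and Myh7 were higher in the irradiated primary too, Myh6 at -0.34 against -5.01 and Myh7 at least 31.7-fold. Nodule 3 exceeded both primaries for these genes, at 3.87 and 2.60, and the range of the nodules exceeded both differences. The cardiac list had 3 of 8 measured members higher (37.5%, beside 9.31% of all features) and a median of 0.45. Of the 3, 1 was beyond the range of the nodules, and Myh7 was kept through the irradiated array alone. On the 6 measured on both primaries, 2 were higher.

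Glucose and low-oxygen genes were moderately higher. In the hypoxia list 9 of 28 measured genes were at least 2-fold higher (32.1%, beside 9.31% of all features), 0 were lower and 19 were less than 2-fold apart, with a median of 0.65. All 9 of the 28 (32.1%) were also beyond the range of the nodules, beside 8.18% of all features. Of the features called higher, 1509 of 1718 were beyond that range. Angptl4, which inhibits lipoprotein lipase, stood at 0.92 in the irradiated and -2.77 in the non-irradiated primary and at -1.62, -1.89 and -1.93 in the nodules, a 12.9-fold difference. The glucose transporter Slc2a1 stood at 3.82 and 2.66, with nodules at 1.18, 0.77 and 0.61. In Slc2a1 both primaries were above every nodule. The collagen hydroxylase P4ha1 was higher by 1.60, Ndrg1 by 1.66 and the lysyl oxidase Loxl2 by 1.59. Vegfa, the main angiogenic factor, differed by 0.65 in its brightest probe, with 3.45 and 2.81 in the primaries and 3.13, 2.77 and 2.64 in the nodules, while its 4 probes ran from 0.42 to 2.30. The receptor Vldlr was at least 8.81-fold higher.

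Of 10 hypoxia list promoters with ACGTG, the core of the hypoxia element, among 22 in the table (45.5%, beside 16.9% of all promoters), 3 belonged to the 6 called genes with a promoter. The other 7 belonged to the 15 further members measured. Glycolysis showed 8 of 21 genes higher (38.1%, beside 9.31% of all features), 0 lower and a median of 0.57. The largest difference was that of Pgam2, the muscle form of phosphoglycerate mutase, at 1.00 and -1.55, and Pfkm, the muscle phosphofructokinase, was higher by 1.93. The Pgam2 difference did not exceed the range of the nodules. Of the 8 genes, Pgam2 and Eno3 (the latter chosen after its value was seen) are also on the muscle list, whose summed level of 7.81 against 5.95 stood higher in the same tumour. The part of muscle RNA in these differences was not tested. Hexokinase Hk2 was higher by 1.50 and the lactate exporter Slc16a3 by 1.55. Mitochondrial respiration genes had 1 of 26 higher (3.85%, beside 9.31% of all features), the complex I subunit Ndufs1 by 1.50, and a median of -0.05.

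Cholesterol synthesis was the metabolic list with the lowest median difference. Of 24 genes measured, 6 were at least 2-fold lower (25.0%, beside 7.14% of all features), 1 was higher and 17 were less than 2-fold apart, with 5 of 24 above 0 and a median of -0.64. The sterol reductase Hsd17b7 stood at -1.73 in the irradiated and 0.03 in the non-irradiated primary and at -1.32, -0.56 and -0.24 in the nodules. Insig1, which retains the sterol sensor in the endoplasmic reticulum, stood at 0.41 and 1.76, with nodules at 1.56, 1.48 and 1.99. The isomerase Idi1 stood at 0.72 and 1.96, with nodules at 2.09, 2.10 and 2.59. Across all features 6.29% were lower by more than the nodules' range. For Insig1 and Idi1 the irradiated primary was the low sample and the other 4 arrays lay within a narrower band. The demethylase Cyp51 was lower by a difference of -1.12 and the cyclase Lss by -1.10. Among 12 fatty acid synthesis genes, 1 was lower (8.33%, beside 7.14% of all features) and the median was -0.29. The lower gene was Acaca, the rate-limiting carboxylase, at a difference of -1.09 that was under 2-fold with normexp.

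**Figure D4:**
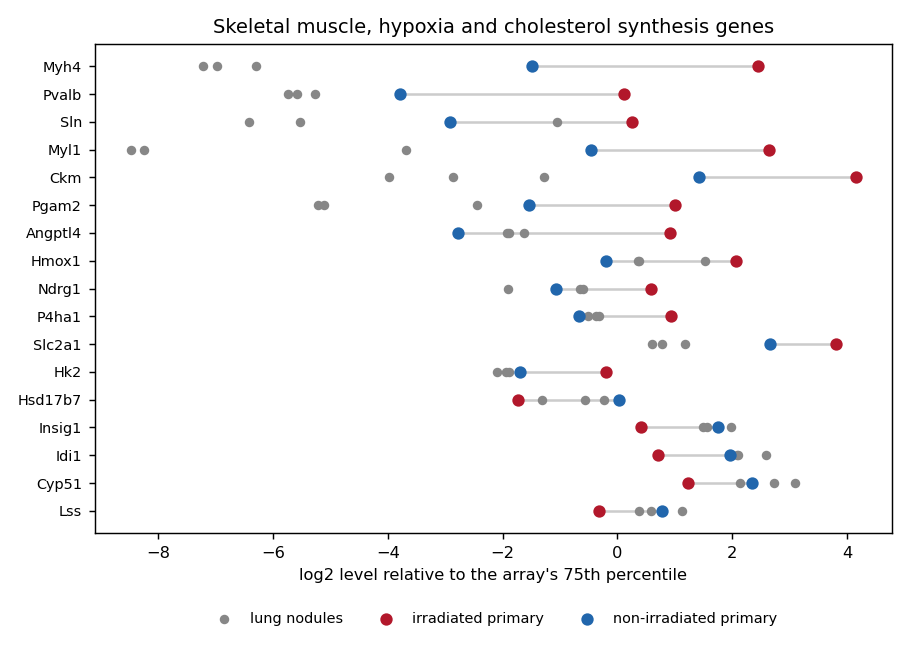
Log2 level relative to the array's 75th percentile (x axis) of 17 skeletal muscle, hypoxia and cholesterol synthesis genes (y axis), 1 point per array: irradiated primary red, non-irradiated primary blue, 3 nodules grey. Red lies right of blue in the muscle and hypoxia genes and left of it in Hsd17b7, Insig1, Idi1, Cyp51 and Lss, and in Myh4, Pvalb and Ckm both primaries lie right of the nodules.

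Proliferation genes were slightly higher, most of them by less than 2-fold. Of 35 cell cycle genes measured, all on both primaries, 6 were at least 2-fold higher (17.1%, beside 9.31% of all features), 0 were lower and 29 were less than 2-fold apart, with 31 above 0 and a median of 0.51. The proliferation marker Mki67 stood at 3.48 in the irradiated and 2.98 in the non-irradiated primary and at 4.14, 4.19 and 4.41 in the nodules, and its 3 probes gave 0.48 to 0.54. Cyclin E1 (Ccne1), which drives entry into S phase, stood at 1.34 and -0.06, with nodules at 0.99, 1.53 and 1.54. The mitotic kinase Aurka was higher by 1.23 and the kinase Pbk by 1.33, the latter under 2-fold with normexp. Kif2c, Kif20a and Tpx2, mitotic motors and a spindle factor, were at 1.05, 1.03 and 1.00 and fell under 2-fold in 2 to 4 other settings. The DNA replication list had 2 of 26 higher (7.69%, below the 9.31% of all features), Pola1 and Orc1, both under 2-fold with normexp, and a median of 0.37. The CCAAT box was found in 20 of 28 cell cycle promoters (71.4%, beside 34.3% of all) and the CHR motif TTTGAA in 12 (42.9%, beside 16.0%). Among the 4 called genes with a promoter 1 held CCAAT and 0 held TTTGAA. Of the 19 other measured members with a promoter, 16 held CCAAT and 10 held TTTGAA.

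Heat shock genes encode chaperones that refold damaged proteins. Of 14 measured, 6 were higher (42.9%, beside 9.31% of all features), 0 lower and the median was 0.79. Hspa4 stood at 2.17 in the irradiated and -0.28 in the non-irradiated primary and at 2.18, 2.33 and 2.25 in the nodules, so the non-irradiated tumour alone was low. Hsph1, a co-chaperone of the same family, was higher by 2.18, and the small heat shock protein Hspb1 by 1.19. In the unfolded protein and integrated stress response list 5 of 26 were higher (19.2%, beside 9.31%), 1 was lower and the median was 0.39, and 3 of the 24 measured on both primaries were higher. The stress-induced transcription factor Atf3, also on the immediate early list, stood at -2.60 in the irradiated primary, was dim in the non-irradiated one and was at least 11.5-fold higher. The nodules were at -8.69, -7.28 and -7.31. Asparagine synthetase Asns was lower by a difference of -1.05. Among 26 immediate early genes 6 were higher (23.1%, beside 9.31%), 0 lower and the median was 0.53. On the 23 measured on both primaries, 4 were higher, with the phosphatase Dusp1 at 0.04 against -3.26 and Fos at -1.61 against -3.04. Myc differed by 0.60.

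Antioxidant and detoxifying genes held a pair of the largest differences. Of 25 measured, 8 were higher (32.0%, beside 9.31% of all features), 1 was lower and the median was 0.80. Aldh3a1, which oxidises aromatic and fatty aldehydes, stood at 3.23 in the irradiated and -2.25 in the non-irradiated primary and at -2.36, -1.98 and -2.02 in the nodules, a 44.9-fold difference. The irradiated primary alone was high. Aldh1a1, which makes retinoic acid, stood at 1.61 and -4.57, with nodules at 0.06, -0.83 and -3.07, a 72.2-fold difference. The non-irradiated primary was the lowest and the nodules were spread. Haem oxygenase Hmox1 was higher by 2.27, and the glutathione transferases Gsta1 and Gsta3 by 1.81 and 1.75, while Gstm1 was lower by a difference of -1.22, less than the nodules' range.

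Matrix genes and proteases ran both ways. Of 24 collagen and matrix genes measured (35 listed), 6 were higher, 4 lower (25.0 and 16.7%, beside 9.31 and 7.14% of all features) and 14 less than 2-fold apart, with a median of 0.17. The adhesion modulators Thbs1 and Tnc were higher by 2.17 and 2.02, and Col1a2 stood at 5.41 against 3.86, with nodules at 6.02, 5.52 and 5.64. Periostin (Postn), a matrix protein of activated fibroblasts, stood at -3.73 in the irradiated and -0.58 in the non-irradiated primary and at -2.49, -3.24 and -3.81 in the nodules, an 8.88-fold lower level. Thbs2 was lower still, at -3.71 against -0.31, but its nodules spread from -1.90 to 1.83. Among 30 proteases and inhibitors, 5 were higher and 4 lower (16.7 and 13.3%), with a median of -0.02.

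The plasminogen activator Plau stood at -2.23 in the irradiated and -4.34 in the non-irradiated primary, with nodules at -3.51, -4.06 and -3.79, between the primaries. The gelatinase Mmp2 was higher by 1.24, at 3.04 against 1.80, with all 3 nodules above both. The stromelysin Mmp3 was lower by a difference of -1.73, with 0.51 and 2.24 in the primaries and -4.67, -3.64 and -4.34 in the nodules. Mmp7 was lower by a difference of -2.13, and Mmp9 by -1.74 with nodules spread from -6.16 to -3.25. Mmp14, Timp1 and Cd44 were less than 2-fold apart, at -0.82, 0.78 and 0.18.

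Stromal and vessel markers did not share a direction. Of 14 pericyte and smooth muscle markers measured 5 were higher and 2 lower (35.7 and 14.3%, beside 9.31 and 7.14% of all features). On the 13 measured on both primaries, 4 were higher and 2 lower. Of 11 fibroblast markers 2 were higher and 3 lower (18.2 and 27.3%, beside the same 9.31 and 7.14%). On the 10 fibroblast markers measured on both primaries, 2 were higher and 2 lower. The pericyte receptor Pdgfrb was lower by a difference of -2.09, at 0.93 against 3.02, while Des, a filament of muscle and pericytes, was higher by 1.99. Of 10 endothelial markers measured, 1 was higher and 2 lower, beside 9.31 and 7.14% of all features, and 7 were less than 2-fold apart. Plvap, a protein of fenestrated vessels, and the VEGF receptor Flt1 were lower by differences of -3.13 and -1.34. Eng was higher by 1.12 but under 2-fold with normexp. Among the fibroblast markers, Fap, a protease of activated fibroblasts, was lower by a difference of -1.73 and under 2-fold with normexp. The other lower members, Mfap5 and Fndc1, were under 2-fold with normexp too, and Fndc1 was dim in the irradiated primary. Col1a2 and the proteoglycan Dcn were higher by 1.55 and 1.54. Dcn was also under 2-fold with normexp, and its difference did not exceed the range of the nodules. The receptors Tgfbr1 and Tgfbr2 were lower by differences of -1.45 and -1.03, Tgfbr2 under 2-fold in the mean of its probes. Erythroid genes had 4 of 10 higher (40.0%, beside 9.31% of all features) and 2 of 10 lower (beside 7.14%). Hba-a1, counted as higher, had probes at 1.36 and -0.70 and was under 2-fold in their mean. Ahsp, counted as lower, was under 2-fold with normexp and in the mean of its probes. Its difference did not exceed the range of the nodules. Haemoglobin Hbb-b1 stood at 4.86 and 3.17, with nodules at 7.77, 7.33 and 6.68, all above both primaries.

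Genes of the Wnt pathway, which controls cell fate and growth, ran both ways. Of 23 measured 5 were higher and 6 lower (21.7 and 26.1%, beside 9.31 and 7.14% of all features), with a median of -0.02. On the 19 measured on both primaries, 3 were higher and 4 lower. Wnt10a stood at 1.50 in the irradiated and -4.75 in the non-irradiated primary and at -7.71, -6.54 and -7.43 in the nodules, a 76.3-fold difference in which the irradiated primary alone was high. Wnt10b stood at -0.09 and -3.49, with nodules at 1.45, 1.29 and 1.47, so here the non-irradiated primary was low. Wnt4 was at least 2.15-fold higher and under 2-fold with normexp. Nkd2, an inhibitor that the pathway induces, stood at -1.20 and 1.72, with nodules at 0.41, 0.12 and -0.82. The secreted antagonist Dkk3 was lower by a difference of -1.52, and Sfrp2 was dim in the irradiated primary and at least 3.32-fold lower.

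The remaining genes with the largest differences belong to no single theme. Higher in the irradiated primary were the tetraspanin Cd81, at 0.65 against -3.11 with nodules at 2.49, 0.26 and 1.14, and the matrix protein Vwa1, at 1.34 against -2.76 with nodules at 0.86, -0.10 and 0.04. The ciliary tektin Tekt4 stood at -0.34 against -4.98, with nodules from -4.29 to -3.54, and the sodium channel subunit Scn4b at -1.32 against -5.14. Mnda, a myeloid nuclear antigen, was at least 92.1-fold, the receptor Fcrl2 at least 59.2-fold, Sox14 at least 49.6-fold and Ppfia4 at least 45.4-fold higher. In Cd81, Vwa1 and Fcrl2 the non-irradiated primary was the low array, and in Tekt4, Scn4b, Sox14 and Ppfia4 the irradiated primary was the high one.

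Among genes well above background on both primaries, the one lower in the irradiated tumour by the most was the metallothionein Mt3, a zinc-binding protein of the brain, at -4.39 against 2.62 with nodules at -4.76, -1.32 and -3.04, a 128-fold difference. The DNA repair modulator Cyren stood at -5.15 against 1.38, with nodules at -5.02, -5.33 and -5.20, and the mitochondrial ribosome factor Mrrf at -3.75 against 1.44, with nodules at -3.52, -3.15 and -2.95. Gad1, which makes the transmitter GABA, stood at -3.08 against 1.48, and the ion transport regulator Fxyd3 at -1.72 against 2.41. The cancer-testis gene Magea13 was at least 132-fold, the transporter Slc46a2 at least 82.0-fold and Plcxd3 at least 21.8-fold lower. In Cyren, Mrrf, Fxyd3, Slc46a2 and Plcxd3 all 3 nodules lay with the irradiated primary and the non-irradiated tumour alone was high. Of the 12 largest on this side, the olfactory receptors Or51b6 and Or5p50, the keratin-associated Krtap13-2, Tvp23a and the cytochrome Cyp2d5 had that pattern too, while in Wfdc21 the nodules lay between the primaries.

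**Figure D5:**
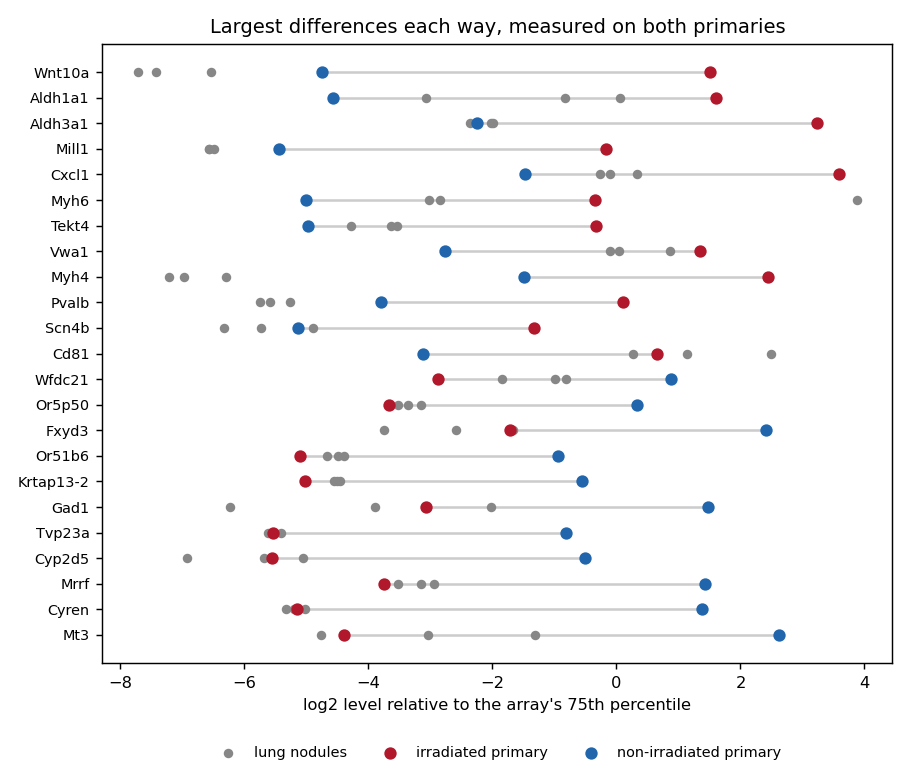
Log2 level relative to the array's 75th percentile (x axis) of 23 of the genes with the largest differences each way among those well above background on both primaries (y axis), 1 point per array: irradiated primary red, non-irradiated primary blue, 3 nodules grey. In most genes of the lower group the grey points lie beside the red one, and in Wnt10a, Aldh3a1, Mill1, Myh4 and Pvalb they lie beside or beyond the blue one.

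Reference genes were close. Of 25 ribosomal protein genes and 16 housekeeping genes measured, 0 were at least 2-fold apart, with medians of -0.04 and 0.05. Rplp0 stood at 8.46 and 8.42, Rpl10 at 8.04 and 8.12 and Ppia at 7.92 and 7.96 in the irradiated and non-irradiated primary, with nodules at 7.82 to 8.62 over the 3 genes.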

How the data were processed

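RNA of 1 irradiated primary, 1 non-irradiated primary and 3 lung nodules was measured on 5 single-colour arrays of 1 slide. Spot intensity was deposited after background subtraction and detrending within each array by Agilent Feature Extraction 11.0, per the file headers and the submitters' processing notes. Per the file headers, the deposited 0 or 1 flags mark other properties of a spot: outlier, saturation and signal well above background. The authors' deposited matrix holds log2 values of 18502 probes whose making is not given in the sources used here.

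Control and outlier spots were left out, replicate spots averaged as log2, and each array scaled by its 75th percentile. A probe counted as well above background when most of its spots were. Of 30363 probes used, 18354 (60.4%) were named through their RefSeq accession. The brightest probe stood for a gene. Of 1817 genes with several kept probes, 4 had calls in opposite directions, Aif1 among them. A gene dim on 1 primary has a lower bound, its bright level against the higher of its own level and the lowest well-above-background level of the dim array. Medians of lists use measured members and set no p-value. Named genes are the 12 largest differences and 6 largest bounds each way, up to 6 called members of each of 43 lists (the 2 brightest where fewer than 2 were called), and a fixed set. Some genes that this covers are left out of the text, and a few are not reported here. The members and lists were chosen with earlier results of these data known. Alternatives were median scaling, quantile normalization, normexp (limma 3.58.1, offset 50, run on the median rather than the planned mean signal, which is not used here), other filters, probe means and the deposited matrix. The steps were tested on simulated data (Python 3.11.15). The number of arrays limits the precision.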

Additional observations from a re-analysis of the deposited data

How the results depend on the processing

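No paired analysis was possible because each primary is 1 array. The counts depended most on how dim probes were treated. Against 1718 features higher and 1317 lower, normexp gave 809 and 686, and the deposited matrix 1093 higher and 1008 lower. The median count between nodules of 1364 became 450 with normexp, 2405 with no filter on dim probes, 841 on probes well above background on both arrays and 598 in the deposited matrix, and leaving out each nodule in turn gave 695 to 1820. The primaries had the larger share of calls in all 8 settings, from 8.10% against 2.31% for the nodule pairs (normexp) to 16.5% against 6.99%. The share of calls that were higher ran from 50.5% (median scaling) to 56.7%.

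The chemokine median of 1.34 was 0.86 with normexp, 0.084 with no filter, 0.034 on probes well above background on both arrays and -0.014 in the deposited matrix. That of interferon-stimulated genes (0.83) was 0.75 with median scaling, 0.77 with quantile normalization, 0.63 with normexp, 0.74 with no filter, 0.69 on both arrays and 0.66 in the matrix. The p53 median (0.90) was 0.82 with median scaling, 0.47 with normexp, 0.73 with no filter, 0.81 on both arrays, 0.78 over probe means and 0.80 in the matrix. The macrophage median (0.71) was 0.64 with median scaling, 0.62 with normexp, 0.63 with no filter or probe means and 0.56 in the matrix. The mast cell and platelet median of 1.84 was -0.0057 on both arrays and -0.015 in the matrix. The medians of the cell cycle, hypoxia, cholesterol synthesis and skeletal muscle lists moved by less than their spread between nodules. Of 211 called genes, 161 stayed at least 2-fold with normexp and 203 with median scaling. Cd5l alone turned (from -4.92), to 2.19 with no filter. Normexp compresses dim signals by its construction, and the cause of the other changes was not tested. Differences of dim genes are the least certain.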
